A study of Mus musculus with 30 samples.

Results

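The genes described here are the vesicle fusion and exocytosis machinery of pancreatic islet cells: 88 of the 17775 genes in the deposited table, chosen by symbol. The rule took every gene whose symbol starts with Syt or Sytl plus a digit, Stx plus a digit, Stxbp, Vamp, Snap plus a digit, Rab3, Rab27, Unc13, Rims, Cplx or Doc2, and left out 1 hyphenated symbol. It gave 14 synaptotagmins, 5 synaptotagmin-like proteins, 15 syntaxins, 5 genes of the Snap symbols, 7 VAMPs, 8 syntaxin-binding proteins and 12 priming and clamp genes (Unc13, Rims, Cplx and Doc2). It also gave 6 Rab3 and Rab27 GTPases, 4 Rab3 regulators and 12 other Rab GTPases that share only the first letters and digit of Rab3 (Rab30 to Rab39b). Snap91 encodes a clathrin assembly protein and not a SNARE. Of the 88, 82 passed the filter on low values (at least 5 in at least 4 of the 30 libraries), and 6 did not, among them Rab33a, Rims1, Stx19, Syt6 and Unc13d.

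The study sorted fluorescent alpha and beta cells from islets of transgenic mice and sequenced bulk RNA of 30 libraries in 5 groups. The alpha Pdx1 DT group (n = 6) came from mice with the alleles Glucagon-rtTA, TetO-Cre and R26YFP together with CAGPdx1 and RIP-DTR, in which a glucagon-driven, doxycycline-controlled Cre switches on YFP and the beta cell transcription factor Pdx1 in alpha cells, and diphtheria toxin (DT) given at 2 months removes cells that carry its receptor under the rat insulin promoter. These cells were collected 30 days after the toxin. The alpha Pdx1 group (n = 5) carried the same alleles without RIP-DTR, received no toxin and was 3 months old. The alpha DT group (n = 4) came from Glucagon-Venus; RIP-DTR mice given toxin at 2 months and was collected 30 days later. The beta group (n = 7) came from 3-month-old Insulin-mCherry mice, and the alpha group (n = 8) from 3-month-old Glucagon-Venus mice. Toxin therefore goes with RIP-DTR, and Pdx1 goes with the change of reporter and driver, so these cannot be told apart. Nothing in the labels ties the libraries of a group to separate animals, so p-values measure only the spread between these libraries, which may in part be technical.

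Insulin and glucagon leave the cell by calcium-triggered fusion of granules with the plasma membrane. Rab3 and Rab27 GTPases and their effectors, the synaptotagmin-like proteins, bring granules to the membrane, and Rims, Unc13 and Doc2 proteins prime them. Fusion itself is the zippering of a granule VAMP with a membrane syntaxin and SNAP-25, held by syntaxin-binding proteins and complexins and triggered by synaptotagmins that bind calcium.

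The libraries are deposited as log2 values on a common quantile-normalized scale with quartiles near 5.95, 8.55 and 10.37, so total read counts are not known here and a value near the bottom of the scale (0.758 to 2.35, depending on the library) is a floor. Alpha cell markers were lower and beta cell markers higher in beta than in alpha for 8 of 8 genes in each list. Some markers of other cells also differed in beta, where 16.9% of all genes tested were higher and 17.6% lower. Of the leukocyte genes 3 of 10 were higher (median of the list 1.85). Lower were 3 of 4 mesenchymal (-2.27) and 2 of 2 PP cell genes (-3.56). With the leukocyte mean as a covariate 36 members were called in beta against alpha. In 5 libraries the level of Pdx1, Gcg or Ttr went against the label. The library labelled alpha 8 had a Pdx1 value of 11.23, against 3.66 to 5.61 in the other alpha libraries. The library labelled alpha Pdx1 DT 5 had a Pdx1 value of 5.51, against 11.53 to 12.59 in the other 5 of its group, and its nearest library over all genes was alpha 4 (Pearson r = 0.993, the highest of 435 pairs). The library labelled alpha Pdx1 5 had a Pdx1 value of 8.61 and the highest Ttr value of its group (20.54), and the libraries labelled beta 1 and beta 5 held Gcg at 22.56, the top value of the scale. Counts of called genes are given with and without these 5.

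In beta cells, 41 of the 82 members tested stood at a different level than in alpha cells, and the split ran inside families. Sytl4 (granuphilin, the Rab27 effector that docks insulin granules), Rims3 (a RIM family protein of release sites) and Rab39 were far higher in beta cells. Rab3c, Rab27b, Rab38 and Sytl2, another Rab27 effector, were far lower. The core fusion SNAREs differed less: Snap25 was 0.38 lower and Vamp2 0.95 higher on the log2 scale. Of the 41 called, 21 were higher in beta and 20 lower; of all 16633 genes tested 34.5% were called, 16.9% higher and 17.6% lower, by limma with Benjamini-Hochberg adjusted p under 0.05. Without the 5 libraries that went against their labels the count was 40, of which 39 were shared, and 31.8% of all genes were called. Called without overlap of the beta and alpha libraries were 21 of the 82 members, against 2355 of all 16633 genes tested (14.2%). Among called genes alone, these were 21 of 41 members, against 2355 of 5734 genes.

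**Figure D1:**
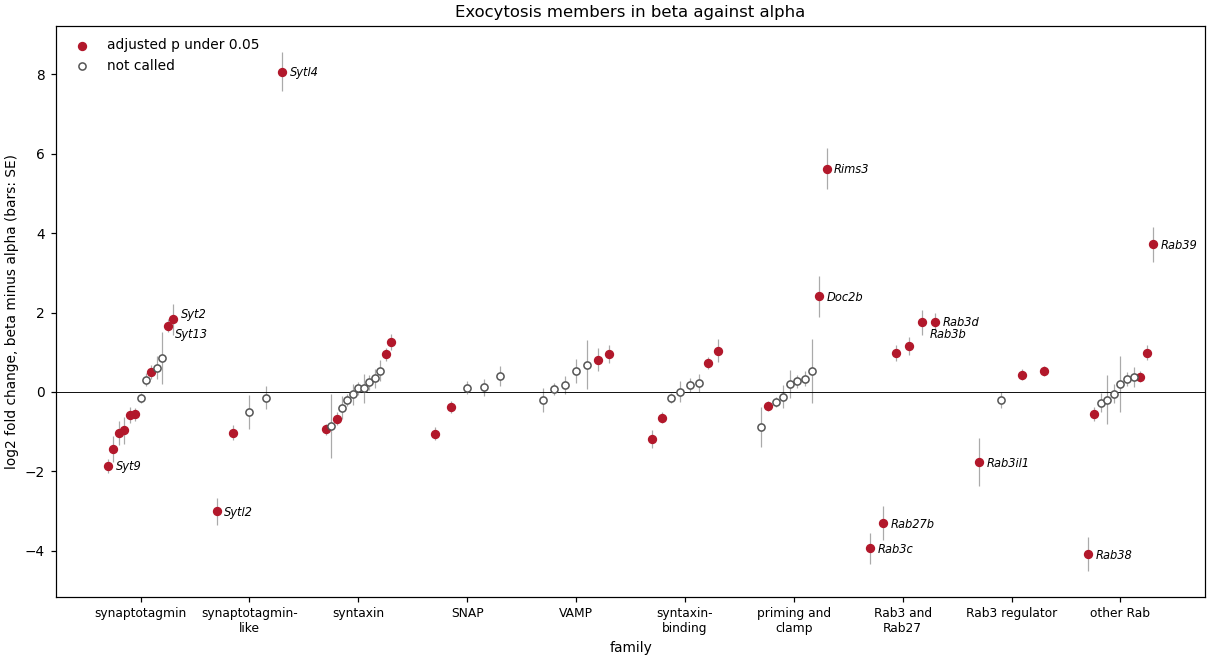
Each point is the log2 fold change of 1 tested member, beta minus alpha, with its SE, ordered by size inside its family along the horizontal axis; filled points have an adjusted p under 0.05 (41 of 82) and open points do not. The Rab3 and Rab27 family holds members far above and far below 0, whereas the VAMP and SNAP families stay between -1.05 (Snap91) and 0.95 (Vamp2).

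Sytl4 ranged over 12.4 to 13.97 with a median of 13.77 in beta, against 3.19 to 6.46 with a median of 5.59 in alpha. Every beta library lay above every alpha library, and no library of the 3 other alpha groups exceeded 6.96, with means of 5.28 in alpha Pdx1 DT, 5.05 in alpha Pdx1 and 5.61 in alpha DT. The log2 fold change was 8.07 ± 0.5 (SE; limma adjusted p = 7.14e-14). Rims3 ranged over 5.98 to 7.96 with a median of 7.56 in beta, against 1.08 to 2.18 with a median of 1.56 in alpha, close to the floor. The groups did not overlap, and the log2 fold change was 5.62 ± 0.52 (adjusted p = 2.48e-10). Rab39, a GTPase of vesicle traffic, ranged over 9.17 to 10.37 (median 9.9) in beta, against 5.38 to 7.11 (median 6.27) in alpha. Again no library crossed over, at a log2 fold change of 3.72 ± 0.44 (adjusted p = 3.11e-08). In the libraries beta 1 and beta 5, where Gcg was at the top of the scale, Rims3 was 5.98 and 6.39, below 7.45 to 7.96 in the other 5 beta libraries.

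Rab3c pointed the other way. It ranged over 7.03 to 10.36 with a median of 7.26 in beta, against 11.64 to 12.32 with a median of 12.09 in alpha, and the groups did not overlap. The difference was -3.94 ± 0.38 (limma adjusted p = 1.64e-09), and -4.88 without the 5 libraries. The 2 high beta libraries were beta 1 and beta 5, at 10.31 and 10.36, while the other 5 beta libraries lay at 7.03 to 7.73. Rab38, a GTPase of lysosome-related organelles, ranged over 3.64 to 5.61 (median 4.01) in beta, against 6.88 to 8.86 (median 8.61) in alpha. The groups were apart by -4.08 ± 0.42 (adjusted p = 2.69e-09), with beta 1 and beta 5 again the highest of beta and alpha 8 the lowest of alpha. Sytl2 ranged over 6.01 to 8.44 (median 6.28) in beta, against 9.08 to 10.57 (median 9.95) in alpha. It did not overlap either, at -3.01 ± 0.35 (adjusted p = 3.72e-08). The part that glucagon-rich RNA in beta 1 and beta 5 has in these values was not tested beyond the fit without them, in which Rab38 (-4.79), Rab27b (-4.07) and Sytl2 (-3.72) lay further from 0.

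**Figure D2:**
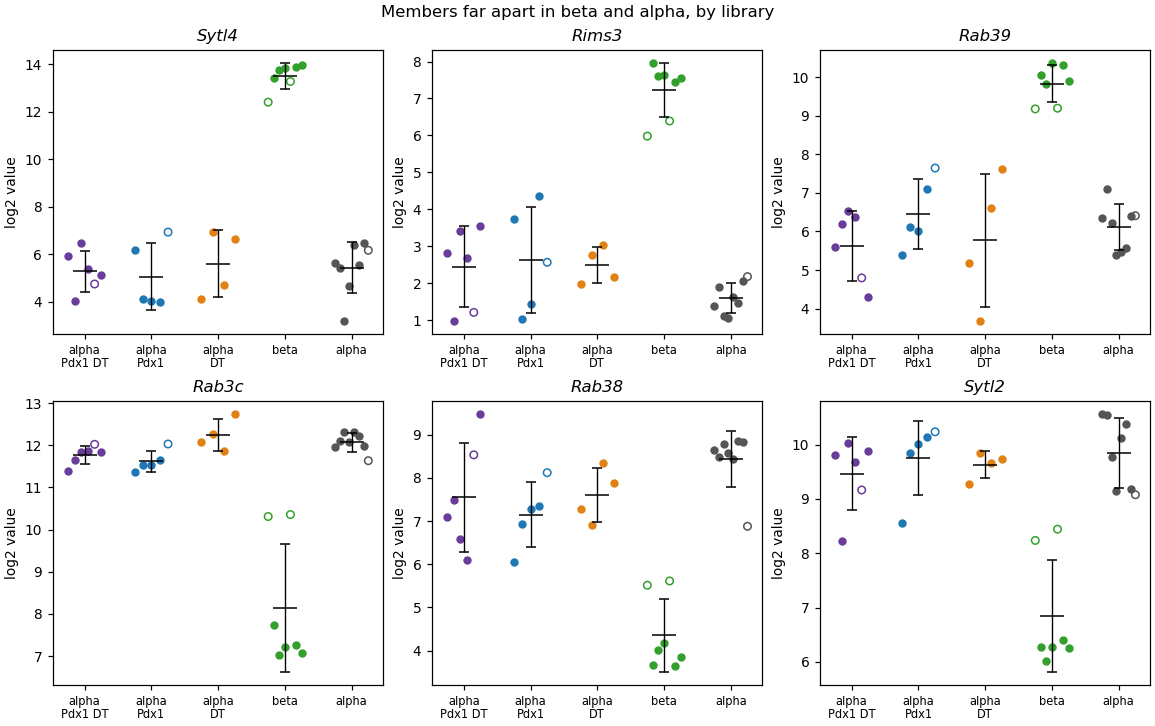
Log2 value (vertical axis) of 6 members in each library of the 5 groups (horizontal axis); bars are the mean ± SD and open circles are the 5 libraries that went against their labels. For Sytl4, Rims3 and Rab39 the beta libraries stand alone at the top (Sytl4 12.4 to 13.97), and for Rab3c and Rab38 they stand alone at the bottom. For Sytl2 they lie below the alpha libraries but meet alpha Pdx1 DT (lowest 8.23), and for these 3 genes beta 1 and beta 5 are the highest of the 7.

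Promoters of 4 members are shown because Sytl4 and Rims3 were far higher and Rab3c far lower in beta than in alpha, and Unc13c was higher with Pdx1. The sequences are from RefSeq on GRCm38.p6, each from 250 bases before to 50 bases after the gene start, 5′ to 3′ on the gene's strand, with letters that match a searched motif on either strand in capitals. The windows are Sytl4 at chrX:133981763-133982062 (minus strand), Rims3 at chr4:120854549-120854848 (plus strand), Rab3c at chr13:110280157-110280456 (minus strand) and Unc13c at chr9:73968988-73969287 (minus strand).
Sytl4: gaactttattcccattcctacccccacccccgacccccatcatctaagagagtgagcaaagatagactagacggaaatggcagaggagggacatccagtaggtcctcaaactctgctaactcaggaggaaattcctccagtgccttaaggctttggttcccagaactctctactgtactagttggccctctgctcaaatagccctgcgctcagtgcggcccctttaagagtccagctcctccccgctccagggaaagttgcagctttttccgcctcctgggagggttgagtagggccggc
Rims3: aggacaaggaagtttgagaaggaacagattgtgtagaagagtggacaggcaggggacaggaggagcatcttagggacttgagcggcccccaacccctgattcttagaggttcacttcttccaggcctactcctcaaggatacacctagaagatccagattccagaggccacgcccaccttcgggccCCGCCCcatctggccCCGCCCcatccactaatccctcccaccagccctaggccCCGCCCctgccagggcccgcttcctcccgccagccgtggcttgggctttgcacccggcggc
Rab3c: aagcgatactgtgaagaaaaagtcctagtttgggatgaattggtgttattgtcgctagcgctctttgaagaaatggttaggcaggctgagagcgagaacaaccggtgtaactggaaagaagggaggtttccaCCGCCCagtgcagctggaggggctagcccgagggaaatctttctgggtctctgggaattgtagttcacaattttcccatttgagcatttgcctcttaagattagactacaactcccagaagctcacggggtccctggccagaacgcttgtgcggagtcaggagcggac
Unc13c: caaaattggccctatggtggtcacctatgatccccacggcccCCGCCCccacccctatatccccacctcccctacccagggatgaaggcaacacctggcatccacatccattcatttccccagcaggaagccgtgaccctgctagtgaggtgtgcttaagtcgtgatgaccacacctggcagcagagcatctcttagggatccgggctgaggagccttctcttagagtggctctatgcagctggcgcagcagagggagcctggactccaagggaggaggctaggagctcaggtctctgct
A set of 5 motifs was searched on both strands, and none of these contains another. TAATTA is the core that homeodomain factors such as Pdx1 bind. The cAMP response element was searched as TGACGTCA, and the site of Maf factors as TGCTGAC. The GC box was searched as GGGCGG. The TATA box was searched for by the letters TATAAA. The Rims3 window held 3 GC boxes, the Rab3c and Unc13c windows 1 each, and the Sytl4 window no match. Over the 81 promoters that matched 65 members, the GC box was present in 66.7%, against 35.7% of all 32851 promoters, the TATA box in 4.94% against 13.6%, and TAATTA in 3.7% against 5.29%. TGCTGAC was in 2.47% against 4.67%, and TGACGTCA in 0 of 81 against 1.79%. A match is a description of these letters, not a bound site.

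Among the Rab3 and Rab27 GTPases, which tie granules to their effectors, 4 of 6 were higher in beta and 2 lower. Beside the family counts here and below, 16.9% of all genes tested were higher in beta and 17.6% lower. Rab3d was 1.77 ± 0.22 higher, Rab3b 1.75 ± 0.32, Rab3a 1.16 ± 0.23 and Rab27a 0.99 ± 0.2, all on the log2 scale and with limma adjusted p of 0.000231 or less. For each of these 4 the beta libraries all lay above the alpha libraries. The margin was narrow for Rab3b (lowest beta 11.28, highest alpha 11.26) and Rab27a (lowest beta 11.92, highest alpha 11.87). Rab27b fell to a median of 4.77 (4.43 to 6.98) in beta, against 8.67 (7.45 to 9.4) in alpha, a difference of -3.3 ± 0.42 (adjusted p = 1.05e-07). Of the regulators of the family, the Rab3 GTPase-activating subunits Rab3gap1 (0.53) and Rab3gap2 (0.44) were higher, the exchange factor relative Rab3il1 was lower (-1.77 ± 0.61, adjusted p = 0.0236, and up to 0.0622 without alpha 2, beta 3 or beta 6), and Rab3ip was not called (-0.2). Exons of Rab3gap2 share 2034 bases with Iars2 on the opposite strand, and whether counting used strand is not given in the sources used here.

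Of 13 synaptotagmins tested, 3 were higher and 6 lower in beta. The calcium sensor Syt9 ranged over 8.52 to 9.69 (median 9.06) in beta, against 10.24 to 11.28 (median 10.99) in alpha, with no overlap (log2 fold change -1.86 ± 0.18, limma adjusted p = 6.06e-10). The calcium sensor Syt1 differed by -1.43 ± 0.33 (adjusted p = 0.000807), and Syt5 by -0.58 (a call lost without alpha 3, alpha 6, alpha 7 or beta 4, with adjusted p up to 0.0703) and Syt11 by -0.56 on the same scale. Syt13, an atypical synaptotagmin that does not bind calcium, ranged over 14.37 to 15.21 (median 14.97) in beta, against 12.93 to 14.05 (median 13.14) in alpha. Syt13 was thus high in both cell types and 1.67 ± 0.17 higher in beta (adjusted p = 2.91e-09). The fast sensor Syt2 was 1.83 ± 0.39 higher, whereas the slow sensor Syt7 (-0.15) and Syt4 (0.31, or 0.48 with adjusted p = 0.0371 without the 5 libraries) did not pass.

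The SNAREs and the proteins that hold them differed less. None of 5 Snap symbols was higher and 2 were lower: Snap25 by -0.38 ± 0.15 (limma adjusted p = 0.0406, 0.191 without the 5 libraries, and held without each of only 4 of 15 libraries) and Snap91 by -1.05. Among 7 VAMPs, Vamp2, the granule SNARE of regulated secretion, was 0.95 ± 0.23 higher (adjusted p = 0.00162) and Vamp8, of endosomes and secretory granules, 0.81 ± 0.29 higher (adjusted p = 0.0272, and up to 0.0704 without beta 4, alpha 1 or alpha 2). Among 13 syntaxins, the endosomal Stx7 (1.26) and Stx12 (0.95) were higher and Stx16 (-0.94), of the trans-Golgi network, and Stx17 (-0.67), of autophagosomes, were lower. The plasma membrane syntaxins Stx1a (-0.4), Stx3 (0.25) and Stx4a (0.35) did not pass. The tomosyn Stxbp5l, an inhibitor of SNARE assembly, was lower (log2 fold change -1.19 ± 0.23, adjusted p = 0.000102), and its relative Stxbp5 did not pass (-0.16). Stxbp3b (1.04) may share reads with its near copy Stxbp3a (0.23, not called), so how the counts divide between them is uncertain.

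Of 10 priming and clamp genes tested, Rims3 and Doc2b were higher in beta and Rims2 lower. Doc2b, a calcium-binding priming protein of insulin granules, had a median of 6.92 (6.15 to 7.56) in beta, against 4.44 (3.47 to 6.06) in alpha, with a log2 fold change of 2.41 ± 0.51 (limma adjusted p = 0.000353). Rims2 differed by -0.35 ± 0.12 (adjusted p = 0.0229, and 0.0533 without beta 7). Unc13a (0.33), Unc13b (0.27), Unc13c (-0.88), Doc2a (-0.12), Cplx1 (0.53) and Cplx2 (-0.26) did not pass. Of the 5 synaptotagmin-like proteins, Sytl5 was also lower (-1.03 ± 0.19, adjusted p = 6.32e-05), and Sytl1 (-0.14) and Sytl3 (-0.51) did not pass. Of 11 other Rabs tested, 3 were higher, among them Rab37 (0.99), known from secretory granules of mast cells, and 2 were lower.

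Other genes of the pathway, which the symbol rule leaves out, were read from a list of 42, of which 40 were tested. In beta 11 were higher and 5 lower than in alpha, where 34.5% of all genes tested were called (16.9% higher and 17.6% lower). Melanophilin (Mlph), which links Rab27 to myosin, was 6.8 ± 0.62 higher on the log2 scale (limma adjusted p = 2.04e-10). The active zone scaffolds Pclo (2.5 ± 0.2) and Erc2 (2.0 ± 0.22), the Rab27 effector Myrip (1.35) and the Rab3 exchange factor Madd (1.18) were also higher, and the liprin Ppfia2 was lower (-1.77 ± 0.24). The priming factors Cadps (0.3) and Cadps2 (0.35) did not pass.

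After toxin treatment, few members changed in alpha cells, led by the granule SNARE Vamp2 and the clamp Cplx1. Alpha DT was set against alpha to show what toxin treatment of RIP-DTR mice does to alpha cells without Pdx1. Vamp2, Cplx1, Rab31, Stx12 and Stx7 were higher and Sytl5, Syt14 and Rims2 lower, 8 of 82 members, against 3.26% of all genes (1.57% higher and 1.7% lower). Without the 5 libraries 9 were called (again 3.26% of all genes), including all 8, with Doc2b added (2.24 ± 0.6, limma adjusted p = 0.0371). None of the 40 other pathway genes passed; the SNARE Vti1b came nearest (-0.72, adjusted p = 0.0539).

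Vamp2 (chr11:69088490-69092384 in the GENCODE annotation of GRCm38) was 12.79, 13.03, 12.78 and 12.96 in the alpha DT libraries, against 10.08 to 12.42 with a median of 11.71 in alpha. All 4 lay above the highest alpha library, and the log2 fold change was 1.38 ± 0.27 (limma adjusted p = 0.00582). The call held without each library in turn, with adjusted p of 0.00175 to 0.0197. Cplx1, the complexin that clamps SNARE complexes, was 7.26, 6.21, 5.57 and 0.99 in alpha DT, against 0.76 to 4.96 with a median of 0.83 in alpha. Thus 3 of 4 alpha DT libraries were above every alpha library and the fourth was at the floor, where 6 of 8 alpha libraries also lay. The log2 fold change of Cplx1 was 3.59 ± 0.96 (adjusted p = 0.0335). Its size depends on where the floor lies, and the call was lost without any 1 of alpha 1, alpha 2, alpha 6, alpha DT 1, alpha DT 2 or alpha DT 3 (highest adjusted p = 0.115).

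Rab31, a GTPase of trans-Golgi and endosome traffic, was 8.23, 8.17, 9.12 and 8.61 in alpha DT, against 6.92 to 8.04 with a median of 7.42 in alpha. Stx12 was 11.16, 11.1, 11.62 and 12.27 in alpha DT, against 10.06 to 10.94 in alpha. Neither overlapped, at log2 fold changes of 1.1 ± 0.29 for Rab31 (limma adjusted p = 0.0317) and 0.98 ± 0.2 for Stx12 (adjusted p = 0.00607). Sytl5, a Rab27 effector, was 11.71, 11.34, 11.67 and 11.67 in alpha DT, against 11.76 to 12.92 with a median of 12.68 in alpha, where 11.76 was the library alpha 8. The groups did not overlap, though only by that library's narrow margin, and the difference was -0.98 ± 0.23 (adjusted p = 0.0143, and 0.0519 without alpha DT 2). Syt14 was 8.78, 9.07, 8.27 and 8.88 in alpha DT, against 9.1 to 10.01 in alpha, a difference of -0.81 (adjusted p = 0.0351). The calls of Stx7 (0.87), Rims2 (-0.5) and Syt14 held without each of 5, 3 and 7 of the 12 libraries, in that order of genes, and that of Rab31 was lost without alpha DT 3 (adjusted p = 0.0877).

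Leukocyte and macrophage markers moved with the same comparison. Of that list 6 of 10 genes were higher in alpha DT (median log2 fold change 4.18), and the mean of the list was 7.89 to 11.47 in alpha DT libraries, against 4.59 to 7.18 in alpha. With that mean as a covariate, chosen after the data were seen, Cplx1 was the only member of the 8 still called (5.58, limma adjusted p = 0.0146), while Vamp2 stood at 1.17 (adjusted p = 0.103) and Stx12 at 0.62 (adjusted p = 0.208). In bulk RNA, a change in the number of cells of a type and a change of RNA per cell cannot be told apart.

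With Pdx1 alone, alpha cells had more Unc13c, Stxbp6, Syt14 and Snap91, and no member was lower past the threshold. Alpha Pdx1 was set against alpha to show what ectopic Pdx1 does in alpha cells with beta cells left in place. The 4 called members (4 of 82, all higher, against 4.33% of all genes, of which 2.36% higher and 1.98% lower) became 9 without the 5 libraries, 3 of them shared, when 6.61% of all genes were called. Of the other pathway genes, Erc2 (1.09) and Myrip (1.13) were higher and the others did not pass.

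Unc13c (Munc13-3, a priming protein of the Unc13 family, with the promoter shown above) was 8.28, 8.29, 8.35, 9.17 and 7.91 in alpha Pdx1, against 3.52 to 8.02 with a median of 5.12 in alpha. The single alpha library in the alpha Pdx1 range was alpha 8, at 8.02, and the next was 5.78. The log2 fold change was 3.13 ± 0.56 (limma adjusted p = 0.00217), and 3.64 without the 5 libraries (adjusted p = 2.53e-07). It held in all 10 other fits and without each of the 13 libraries in turn. Beta cells did not share this level: Unc13c ranged over 3.59 to 4.77 in beta.

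Stxbp6 (amisyn, which binds syntaxins and inhibits exocytosis) was 11.1, 11.39, 11.16, 11.5 and 11.48 in alpha Pdx1, against 9.38 to 10.84 with a median of 9.93 in alpha. No library overlapped, and the log2 fold change was 1.33 ± 0.28 (limma adjusted p = 0.00653). Syt14 was 10.34, 10.64, 10.4, 10.55 and 9.89 in alpha Pdx1, against 9.1 to 10.01 in alpha. Only alpha Pdx1 5 lay inside the alpha range, at a log2 fold change of 0.8 ± 0.2 (adjusted p = 0.0181, and up to 0.0717 without alpha Pdx1 2 or alpha Pdx1 4). Snap91 was 0.61 ± 0.18 higher (adjusted p = 0.0424), a call that was lost without the 5 libraries (adjusted p = 0.105) and held without each of 4 of 13 libraries.

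The members that entered without the 5 libraries included several called in beta against alpha, where 41 of 82 members were called with all libraries. The same alpha libraries serve in both comparisons, so the differences are not independent. Rab3b was 1.46 ± 0.28 higher in alpha Pdx1 (limma adjusted p = 0.000714) and Syt13 0.55 ± 0.17 higher (adjusted p = 0.0473). Lower in that fit were Rab38 (-1.76), Rab3il1 (-2.07), Sytl5 (-0.77) and Rab3c (-0.62). With all libraries these 6 did not pass. Since the 5 libraries were set apart by Pdx1, Gcg and Ttr levels, the fit without them is a description and not a separate test. The ribosomal transcript Rn18s-rs5 was lower in alpha Pdx1 (16.9 to 18.27) than in alpha (17.68 to 20.54); with its level as a covariate, Unc13c was the only one of the 4 still called (adjusted p = 0.0357).

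**Figure D3:**
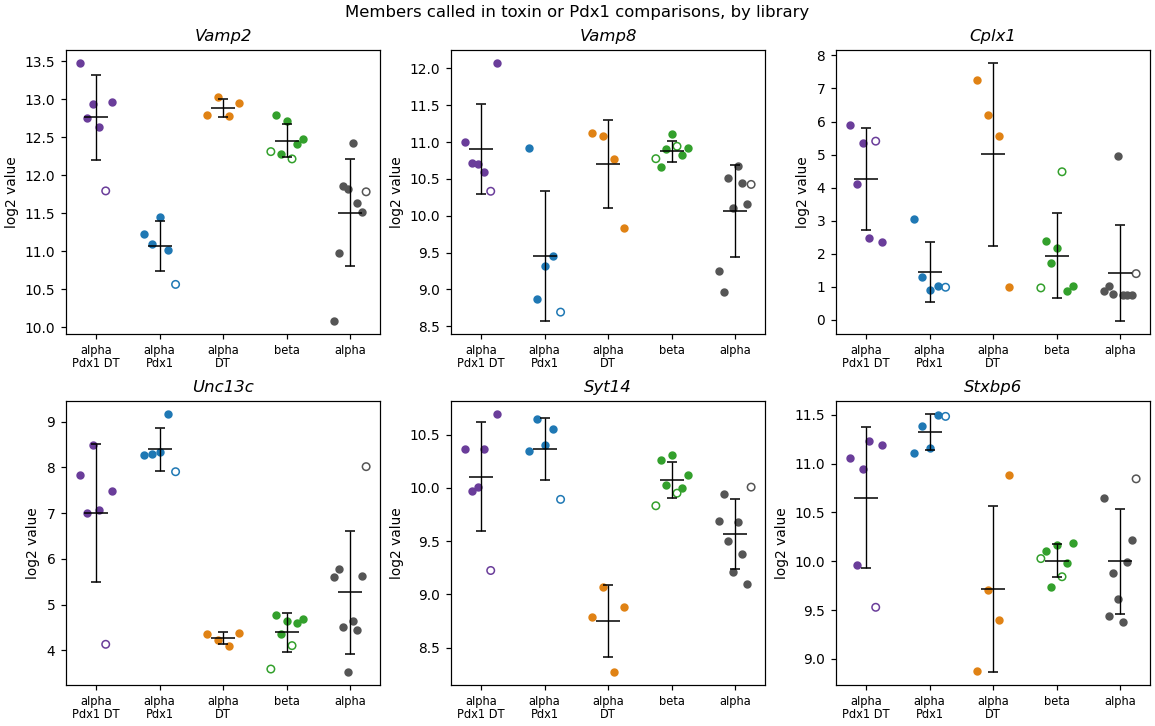
Log2 value (vertical axis) of 6 members in each library of the 5 groups (horizontal axis); bars are the mean ± SD and open circles are the 5 libraries that went against their labels. Vamp2 is high in both toxin groups and also in beta without toxin (12.22 to 12.79). Unc13c is high in both Pdx1 groups apart from alpha Pdx1 DT 5 (4.13), and Cplx1 is at the floor in 6 of 8 alpha libraries.

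With toxin on top of Pdx1, Vamp2, Vamp8, Stxbp3b and Rab3d were higher and Snap91 lower. Alpha Pdx1 DT was set against alpha Pdx1 to show what toxin treatment does once alpha cells express Pdx1. These were 5 of 82 members, against 9.22% of all genes (4.83% higher and 4.39% lower); without the 5 libraries 5 were called (7.65% of all genes), 3 of them shared, with Rab27a (0.91) added on the higher side and Stx8 (-1.07) on the lower side. Of the other pathway genes 3 were higher, among them Sec22b (0.67) and Bet1l (0.86), SNAREs of the early secretory pathway, and 1 was lower.

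Vamp2 had a lowest value of 11.8, a median of 12.85 and a highest value of 13.48 in alpha Pdx1 DT, against 11.22, 11.1, 11.45, 11.01 and 10.56 in alpha Pdx1. The groups did not overlap, with the lowest alpha Pdx1 DT value in alpha Pdx1 DT 5, and the log2 fold change was 1.69 ± 0.27 (limma adjusted p = 0.00109). Vamp8 ranged over 10.33 to 12.07 with a median of 10.71 in alpha Pdx1 DT, against 10.92, 8.87, 9.32, 9.45 and 8.69 in alpha Pdx1. Only alpha Pdx1 1 reached the alpha Pdx1 DT range, and the log2 fold change was 1.45 ± 0.34 (adjusted p = 0.00898). Rab3d ranged over 9.03 to 10.74 (median 10.44) in alpha Pdx1 DT, against 9.56, 9.06, 9.3, 9.19 and 9.23 in alpha Pdx1, a log2 fold change of 0.95 ± 0.26 (adjusted p = 0.0206). The overlap came from alpha Pdx1 DT 5, and the call was lost without alpha Pdx1 2, alpha Pdx1 5 or alpha Pdx1 DT 6 (adjusted p up to 0.0578). Stxbp3b (1.06) and Snap91 (-0.63) were the least steady, held without each of 3 and 4 of the 11 libraries, in that order, and not called without the 5 libraries (adjusted p = 0.0804 and 0.135).

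Rn18s-rs5 moved with this comparison: it was 19.87 to 22.56 in alpha Pdx1 DT, against 16.9 to 18.27 in alpha Pdx1, with no overlap. With its level as a covariate, 0 members were called by limma at adjusted p under 0.05; Vamp2 stood at 0.59 (adjusted p = 0.995), Vamp8 at -0.02 and Stxbp3b at -0.57. The 2 groups hold no common range of Rn18s-rs5, so the covariate and the toxin cannot be told apart here. In alpha DT against alpha the ranges overlap (19.27 to 20.54 in alpha DT, against 17.68 to 20.54 in alpha). There Vamp2 was 1.15 higher with the covariate (limma adjusted p = 0.014), and its call was lost with the leukocyte mean, as given above. The slope of Rn18s-rs5 was fitted over all 30 libraries, including the 2 groups without a common range. The part of Rn18s-rs5 in the Vamp2 difference was not tested apart from that. Of the leukocyte list 4 of 10 genes were higher in alpha Pdx1 DT than in alpha Pdx1. With the mean of that list as a covariate Vamp2 stood at 1.53 (limma adjusted p = 0.0557). Of the 7 acinar cell markers tested 0 were called, at a median log2 fold change of 3.49. The mean of the acinar list was 6.4 to 14.73 in alpha Pdx1 DT libraries, against 3.93 to 11.48 in alpha Pdx1. The part of acinar RNA in the values of members was not tested.

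**Figure D4:**
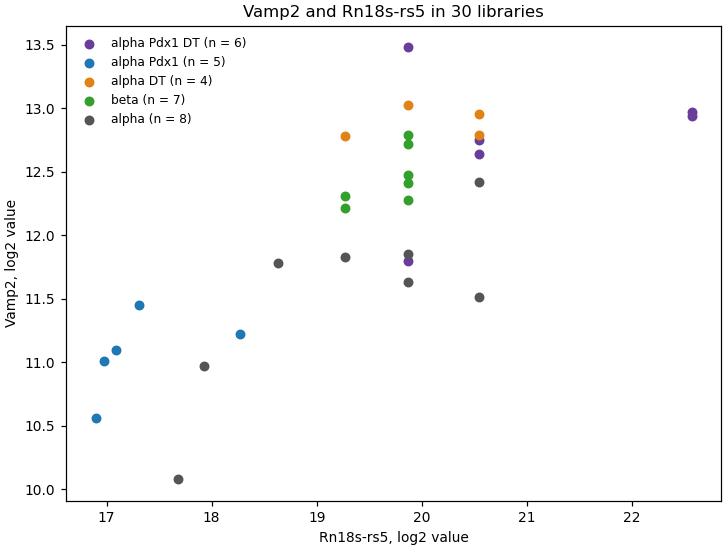
Vamp2 log2 value (vertical axis) against Rn18s-rs5 log2 value (horizontal axis), 1 point for each of the 30 libraries, coloured by group. The alpha Pdx1 libraries sit at the lower left (Vamp2 10.56 to 11.45) and the toxin groups at the upper right, while at 19.27 to 20.54 of Rn18s-rs5 the 4 alpha DT libraries lie above the alpha libraries.

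Among toxin-treated mice, Pdx1 went with more Unc13c, Syt14, Sytl3 and Syt13. Alpha Pdx1 DT was set against alpha DT to show what Pdx1 adds when beta cells have been removed, and 4 of 82 members were higher and none lower, against 2.1% of all genes (1.78% higher and 0.319% lower). Without the 5 libraries 7 were called, when 5.73% of all genes were, including all 4, with Stxbp6 (1.16), Rab37 (0.85) and Rab3b (1.32) added. Rimbp2 (0.75), a protein that links Rims to calcium channels, was the 1 other pathway gene called.

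Syt14 (chr1:192891233-193035775) ranged over 9.22 to 10.7 with a median of 10.19 in alpha Pdx1 DT, against 8.78, 9.07, 8.27 and 8.88 in alpha DT. The groups did not overlap, the log2 fold change was 1.35 ± 0.23 (limma adjusted p = 0.0018), and the call held without each of 10 libraries in turn. Syt14 is a synaptotagmin that does not depend on calcium. Unc13c ranged over 4.13 to 8.48 with a median of 7.28 in alpha Pdx1 DT, against 4.36, 4.22, 4.1 and 4.37 in alpha DT. The only alpha Pdx1 DT library in the alpha DT range was alpha Pdx1 DT 5, and the next lowest was 7.0. The log2 fold change of Unc13c was 2.74 ± 0.63 (adjusted p = 0.0189), and 3.31 without the 5 libraries; it was lost without alpha DT 3 (adjusted p = 0.0572). Sytl3 differed by 2.18 ± 0.54 (adjusted p = 0.0276), with alpha DT libraries at 3.28, 6.63, 6.62 and 4.75. Syt13 was 13.16 to 13.91 in alpha Pdx1 DT, against 12.58, 12.62, 13.22 and 12.57 in alpha DT, a log2 fold change of 0.87 ± 0.22 (adjusted p = 0.0294). The calls of Sytl3 and Syt13 held without each of 5 and 4 of the 10 libraries, in that order.

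With toxin and Pdx1 together, set against untreated alpha, the GTPases Rab3a, Rab3b, Rab3d and Rab27a, the clamps Cplx1 and Cplx2, Vamp2 and Unc13c were higher. With these 8 and with Sytl5 and Stx8 lower, 10 of 82 members were called, against 7.81% of all genes (4.06% higher and 3.75% lower). Without the 5 libraries 25 were called, including these 10, when 20.3% of all genes were called. The values are given beside those of beta against alpha. Both comparisons use the same alpha libraries, so their differences are not independent. Rab3d was 0.99 ± 0.23 higher in alpha Pdx1 DT (limma adjusted p = 0.0121) and 1.77 higher in beta. Rab3b was 1.18 ± 0.34 higher in alpha Pdx1 DT (adjusted p = 0.0294) and 1.75 in beta, and Rab3a 0.96 ± 0.24 (adjusted p = 0.0152) and 1.16. Rab27a was 0.71 ± 0.21 higher in alpha Pdx1 DT and 0.99 in beta. Cplx1 (2.84 ± 0.84) and Unc13c (1.73 ± 0.53) were higher in alpha Pdx1 DT, whereas neither passed in beta. In alpha Pdx1 DT 6, Cplx1 was at that library's floor of 2.35, and 6 of 8 alpha libraries were at floors within 0.76 to 1.03. The size of the Cplx1 difference thus depends in part on where the floors lie. Cplx2 had a mean of 14.2 in alpha Pdx1 DT, 13.77 in alpha and 13.51 in beta, where it did not pass against alpha. In the same order of groups, the means were 12.76, 11.51 and 12.46 for Vamp2 and 11.73, 12.58 and 11.56 for Sytl5. For Stx8 they were 9.27, 10.12 and 10.06. With Rn18s-rs5 as a covariate none of the 10 was called by limma, and with the leukocyte mean only Cplx1 was (adjusted p = 0.0412). Vamp2, Rab3d and Sytl5 kept their calls without each of the 14 libraries in turn, and Rab3a lost its call without alpha Pdx1 DT 6 (adjusted p = 0.0527). Rab3b held without each of 5, Rab27a of 4, Unc13c of 5, Cplx1 of 7, and Cplx2 and Stx8 of 3 of the 14 libraries.

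Rab3b shows the spread behind these values. It was 9.69 in alpha Pdx1 DT 5 and 11.2 to 11.88 in the other 5 libraries of that group, and 11.26 in alpha 8 against 8.78 to 10.67 in the other 7 alpha libraries. In alpha Pdx1 it was 11.19, 11.33, 11.52, 10.87 and 9.61, the last in the library alpha Pdx1 5. These 3 libraries are among the 5 that went against their labels. In the check of single libraries given below, only alpha Pdx1 DT 5 stood apart for Rab3b. Without the 5 libraries the log2 fold change of alpha Pdx1 DT over alpha was 1.66 (limma adjusted p = 3.41e-05). The 5 were picked by Pdx1, Gcg and Ttr levels, so that fit is a description, and the cause of the spread was not tested.

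Set against beta itself, alpha cells with Pdx1 and toxin still differed in many members. Alpha Pdx1 DT had 19 members higher and 12 lower than beta, 31 of 82, against 26.3% of all genes (12.9% higher and 13.4% lower), and 28 without the 5 libraries (25.5% of all genes), 25 of them shared. Lowest against beta were Sytl4 (-8.23 ± 0.54), Rims3 (-4.78 ± 0.56) and Rab39 (-4.2 ± 0.47), with limma adjusted p of 4.6e-08 or less and no overlap. Highest were Rab3c (3.63 ± 0.4), Rab38 (3.19 ± 0.46) and Sytl2 (2.62 ± 0.38). The beta libraries of this comparison are those set against alpha above.

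The levels show the same by group. Sytl4 ranged over 4.01 to 6.46 in alpha Pdx1 DT, against 12.4 to 13.97 in beta. Rims3 ranged over 0.98 to 3.56 in alpha Pdx1 DT, against 5.98 to 7.96 in beta. Rab3c ranged over 11.4 to 12.02 in alpha Pdx1 DT, against 7.03 to 10.36 in beta, so that no library of either group reached the other for these 3 genes. Syt13 had a mean of 13.62 in alpha Pdx1 DT, 14.91 in beta and 13.24 in alpha. Against alpha, Syt13 did not pass in alpha Pdx1 DT with all libraries. Without the 5 libraries it was 0.59 higher there (limma adjusted p = 0.00929). Against beta, Syt13 was 1.29 ± 0.19 lower in alpha Pdx1 DT (limma adjusted p = 2.17e-06). Snap23 was lower too (-0.94 ± 0.28, adjusted p = 0.0106), a SNARE of constitutive and regulated fusion. Syt9 (2.19 ± 0.19) and Syt1 (1.94 ± 0.35) were higher in alpha Pdx1 DT. Rab3a (-0.2 ± 0.24), Rab3b (-0.57 ± 0.35) and Rab27a (-0.28 ± 0.22) did not pass against beta, which does not show that their levels were alike. Rab3d was lower in alpha Pdx1 DT than in beta (-0.78 ± 0.24, adjusted p = 0.0131, and 0.0577 without alpha Pdx1 DT 5). Of the 40 other pathway genes 2 were higher and 11 lower than in beta, among the lower Mlph (-6.82) and Pclo (-2.59). Of all genes tested 12.9% were higher and 13.4% lower.

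**Figure D5:**
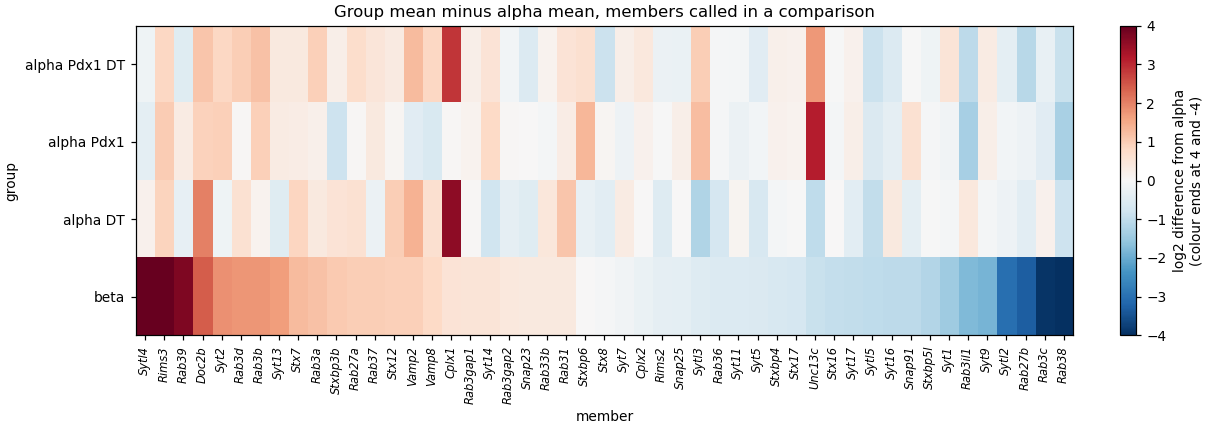
Mean log2 value of each group minus the alpha mean (colour, whose scale ends at 4 and -4) for members called in at least 1 comparison, ordered by the beta difference; groups run down the vertical axis and members along the horizontal axis. The ends of the beta row (Sytl4, Rims3, Rab39; Rab3c, Rab38) are paler in the 3 alpha groups, where Cplx1 stands out in both toxin groups and Unc13c in both Pdx1 groups.

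Whether toxin acted differently with and without Pdx1 was tested as an interaction (alpha Pdx1 DT minus alpha Pdx1, less alpha DT minus alpha). No member passed in limma, 0 of 82, against 0.0% of all genes. At an unadjusted p under 0.05 there were 10 of 82 members (12.2%), against 9.18% of all genes. For Vamp2, the toxin difference was 1.69 with Pdx1 and 1.38 without, and the interaction was 0.31 ± 0.39 (limma adjusted p = 0.832). Over all comparisons 50 of 82 members were called at least once, against 49.7% of all genes, and 21 in a comparison between alpha groups, against 19.5% of all genes.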

How the data were processed

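Bulk RNA of 30 sorted islet cell libraries was compared in 5 groups taken from the labels. Per the submitters' processing notes, GSNAP and the GRCm38 build were used. The sources used here do not give how reads were counted (annotation, strand) or normalized. In the authors' deposited table are log2 values for 17775 genes, and these show nearly equal quartiles in all libraries, as quantile normalization gives. They hold no counts, so depth is unknown and count tests were not used. The test took the 16633 genes that reached 5 on this scale in 4 or more libraries and left out 1142. limma 3.58.1 in R 4.3.3 was run on all 30 libraries with 1 mean per group, empirical Bayes with an intensity trend and robust variances, two-sided, and p-values were adjusted by Benjamini-Hochberg over all genes tested, with a threshold of 0.05. The scripts were tested on simulated data with 200 changed genes. 8 comparisons were made.

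The members and lists were chosen with earlier results of these data known. Named are all members past the threshold between alpha groups (at most 12 per direction), the 12 highest and lowest called members in the comparisons with beta, and a list of core exocytosis genes. The core genes Rims1 and Unc13d did not pass the filter, and Cplx3 was not analysed here. Results of some members are not reported here by name. Alternatives were filters, an offset, rescaling, other variance models and weights, Rn18s-rs5 as a covariate, the groups alone, leaving out each library, and leaving out the 5 libraries picked by Pdx1, Gcg and Ttr levels in an earlier analysis. The leukocyte covariate was added after the data were seen. Positions are from GENCODE (85 of 88 members with 1 position) and promoters from RefSeq on GRCm38.p6. Cell type markers in no row of the table were not analysed here. Raw reads were not used here.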

Additional observations from a re-analysis of the deposited data

Results flagged for a closer look

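In 12 of 95 sets of libraries examined (19 members in each of the 5 groups), 1 library stood apart from the others of its group. Chance gives about 1 in 20 only for independent sets with a normal spread. These sets share the same libraries, and their members were chosen with earlier results of these data known. Cplx1 also lay at the floor in many libraries. The count of 12 can therefore not be read as more than chance gives.

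Of the 12 values, 3 were in alpha 8, whose Pdx1 level goes against its label: Syt13 at 14.05 (the next alpha library was at 13.3), Rab38 at 6.88 (next 8.44) and Sytl5 at 11.76 (next 12.46). Another 3 were in alpha Pdx1 DT 5, which also goes against its label: Rab3b at 9.69 (next 11.2), Rab27a at 10.86 (next 12.14) and Unc13c at 4.13 (next 7.0). The clamp Cplx1 stood apart in 3 libraries that were high where the rest of the group was low: alpha Pdx1 1 at 3.06 (next 1.28), beta 5 at 4.48 (next 2.39) and alpha 4 at 4.96 (next 1.4). In alpha DT, Syt13 was 13.22 in alpha DT 3 (next 12.62) and Sytl5 was 11.34 in alpha DT 2 (next 11.67). In alpha Pdx1, Sytl2 was 8.56 in alpha Pdx1 1 (next 9.84).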

How the results depend on the processing

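Counts of members called in beta against alpha (41; 36 to 53 in other settings, 36 to 41 without each library) and in alpha Pdx1 DT against beta (31; 28 to 45, and 25 to 31) stayed within 1.5 times. The interaction had 0 members in every setting run. The smaller counts moved. Alpha DT against alpha had 8, but 4 with the Rn18s-rs5 covariate, 1 with the groups alone, 1 with the leukocyte covariate, 2 with library weights and 4 to 9 without each library. Alpha Pdx1 against alpha had 4, but 1 with Rn18s-rs5, 14 with weights, 9 without the 5 libraries and 2 to 7 without each library. Alpha Pdx1 DT against alpha Pdx1 had 5, but 0 with Rn18s-rs5, 2 alone, 0 with the leukocyte covariate, 19 with weights and 2 to 11 without each library. Alpha Pdx1 DT against alpha DT had 4, but 0 alone, 1 with weights, 7 without the 5 libraries and 2 to 7 without each library. Alpha Pdx1 DT against alpha had 10, but 0 with Rn18s-rs5, 0 alone, 1 with the leukocyte covariate, 23 with weights, 25 without the 5 libraries and 4 to 20 without each library. By library, alpha DT against alpha had 4 without alpha DT 2, alpha DT 3 or alpha 2, and 5 without alpha 1 or alpha 6. Alpha Pdx1 against alpha had 2 without alpha Pdx1 2 or alpha Pdx1 4, and 7 without alpha 8. Alpha Pdx1 DT against alpha Pdx1 had 11 without alpha Pdx1 DT 5, 8 without alpha Pdx1 1, 3 without alpha Pdx1 DT 2, alpha Pdx1 DT 6, alpha Pdx1 3 or alpha Pdx1 4, and 2 without alpha Pdx1 2 or alpha Pdx1 5. Alpha Pdx1 DT against alpha DT had 7 without alpha Pdx1 DT 5 and 2 without alpha Pdx1 DT 1, alpha Pdx1 DT 4 or alpha Pdx1 DT 6. Alpha Pdx1 DT against alpha had 20 without alpha Pdx1 DT 5, 6 without alpha 4, 5 without alpha Pdx1 DT 4, alpha Pdx1 DT 6, alpha 2 or alpha 3, and 4 without alpha Pdx1 DT 1, alpha Pdx1 DT 2, alpha Pdx1 DT 3, alpha 1 or alpha 6. With Rn18s-rs5 as a covariate the direction turned for Vamp8 (-0.02) and Stxbp3b (-0.57) in alpha Pdx1 DT against alpha Pdx1. The cause of these changes was not tested.

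No paired analysis was possible because replicate numbers were given in accession order and pair no libraries. The floor differed between libraries, with a median of 0.88 over all 30 and a median of 311.5 genes at it. It was highest in alpha Pdx1 DT 6 (2.35, with 1437 genes at it) and 2.0 in alpha DT 3 (1064 genes), both from toxin groups. Depth is not known, so how far low values such as Cplx1 can be resolved beyond this cannot be said.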
